A study of Homo sapiens with 9 samples.

Results

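The genes described here are 31 genes of cholesterol and fatty acid synthesis, a list by gene symbol that covers the regulators of the pathway, the enzymes of its sterol and fatty acid arms, and 1 cholesterol transporter. Of these, 27 had an array probe set annotated with exactly 1 gene symbol, out of 11963 genes measured in that way. The members FDFT1, CYP51A1, FADS1 and ACSL3 were not analysed here. Where a gene had several such probe sets, the set with the highest mean over the lines was used, which was a choice in 17 of the 27 genes. The 27 were 5 regulators, 15 enzymes of the sterol arm, 6 enzymes of the fatty acid arm and the transporter NPC1.

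The measurements came from 9 Affymetrix Human Genome arrays and 6 established human cell lines, all grown in serum-supplemented RPMI medium. The sample titles name the B-cell arrays as untreated, whereas the PCM titles give the line name alone. The plasma cell myeloma (PCM) group was LP1, L363 and U266, with 1 array each. The B-cell group was Namalwa, a Burkitt lymphoma line, and SU-DHL6 and SU-DHL4, lines of diffuse large B-cell lymphoma, with 2 arrays each. The authors' values are RMA expression levels on the log2 scale, on which a difference of 1 is 2-fold. Each array holds RNA of a whole culture, so fewer cells with a transcript and less transcript per cell cannot be told apart.

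The line labels were set against marker genes. Over 6 B-cell markers the mean level lay between 6.32 and 6.77 in PCM lines and between 10.58 and 10.97 in B-cell lines. Over 6 plasma cell markers it lay between 10.48 and 10.83 in PCM lines and between 6.90 and 7.89 in B-cell lines. Lists of T cell, myeloid and epithelial or fibroblast markers differed little between the groups, from 5.35 to 7.52 in PCM lines and from 5.28 to 7.57 in B-cell lines. The arrays labelled L363 and U266 were close to each other: the SD of their difference over all probe sets was 0.32, against 0.22 to 0.35 for the duplicates of a B-cell line and 0.55 for LP1 against either of them. Over the 27 members the SD between L363 and U266 was 0.26, and 0 members differed over 2-fold. The Namalwa arrays came from an earlier publication of the same group, so that data set and line cannot be told apart for Namalwa. The labels number the B-cell duplicates but do not say that they came from separate cultures, so tests on them measure the spread between arrays, which may be technical.

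Cells make cholesterol from acetyl-CoA by way of mevalonate, isoprenoid units, squalene and lanosterol, and they make fatty acids from the same precursor by elongation and desaturation. The sterol regulatory element-binding proteins (SREBPs) switch on the genes of both routes. When sterols are scarce, SCAP escorts the SREBPs from the endoplasmic reticulum to the Golgi, where they are cut and released, and when sterols are plentiful INSIG proteins hold SCAP back. SREBP2 is known mainly for sterol genes and SREBP1 mainly for fatty acid genes. Plasma cells, which secrete antibody, carry a large endoplasmic reticulum whose membranes are built from these lipids.

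SREBPs bind the sterol regulatory element together with the factors NF-Y, which reads CCAAT, and SP1, which reads GC boxes. The 250 bases before the transcription start are shown for the 4 genes with a promoter window that were higher in LP1 than in L363 and U266, and for SREBF2, the gene of SREBP2. They are RefSeq sequences of build GRCh38.p14, 5′ to 3′ on the strand of the gene, from HMGCS1 at chr5:43313413-43313662 on the minus strand, INSIG1 at chr7:155297628-155297877 on the plus strand, FDPS at chr1:155308616-155308865 on the plus strand, LSS at chr21:46228775-46229024 on the minus strand and SREBF2 at chr22:41832855-41833104 on the plus strand. Capitals mark the sterol element core TCACNCCAC and the box CCAAT on either strand, ATTGG being CCAAT read on the other strand.
HMGCS1: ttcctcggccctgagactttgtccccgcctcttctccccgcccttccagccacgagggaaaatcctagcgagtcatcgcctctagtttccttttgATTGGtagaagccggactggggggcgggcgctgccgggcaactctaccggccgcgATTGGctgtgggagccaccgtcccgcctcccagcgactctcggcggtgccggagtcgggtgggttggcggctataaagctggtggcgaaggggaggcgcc
INSIG1: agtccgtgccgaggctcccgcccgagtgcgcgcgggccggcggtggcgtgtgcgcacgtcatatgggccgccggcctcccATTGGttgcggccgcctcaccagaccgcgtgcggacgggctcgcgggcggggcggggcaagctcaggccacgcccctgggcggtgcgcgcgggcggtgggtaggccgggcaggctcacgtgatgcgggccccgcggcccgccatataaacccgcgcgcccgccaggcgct
FDPS: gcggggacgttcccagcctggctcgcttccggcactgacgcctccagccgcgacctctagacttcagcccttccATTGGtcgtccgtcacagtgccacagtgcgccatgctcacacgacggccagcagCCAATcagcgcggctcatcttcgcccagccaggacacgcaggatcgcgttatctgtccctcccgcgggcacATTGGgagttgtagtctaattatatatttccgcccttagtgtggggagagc
LSS: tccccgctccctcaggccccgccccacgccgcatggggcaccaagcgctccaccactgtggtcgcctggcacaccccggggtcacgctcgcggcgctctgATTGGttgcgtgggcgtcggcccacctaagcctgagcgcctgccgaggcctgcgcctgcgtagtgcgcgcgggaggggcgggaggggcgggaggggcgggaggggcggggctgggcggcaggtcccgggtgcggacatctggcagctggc
SREBF2: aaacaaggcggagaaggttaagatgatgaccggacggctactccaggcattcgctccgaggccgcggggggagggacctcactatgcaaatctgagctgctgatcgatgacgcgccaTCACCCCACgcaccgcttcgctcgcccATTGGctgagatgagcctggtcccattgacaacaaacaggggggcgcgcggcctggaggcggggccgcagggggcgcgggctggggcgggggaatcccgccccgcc

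In the sequences shown, HMGCS1 held 2 CCAAT boxes, FDPS held 3, and INSIG1, LSS and SREBF2 held 1 each. The sterol element core was found in SREBF2 alone among these 5, upstream of the CCAAT box. A promoter window of 250 bases before to 50 bases after the start was at hand for 24 of the 27 members, and these shares are over such windows outside chromosome 8. CCAAT was found in 18 of 24 members (75%), against 39.7% of 27305 genes. GGGCGG, the GC box, was found in 23 of 24 (95.8%), against 48.3% of genes. TCACNCCAC was found in 2 of 24, SREBF2 and 1 of the annotated starts of ACSL1, against 1.39% of genes. The 27305 genes were not limited to those measured on the arrays, and a gene with several annotated starts had more windows to match. The shares are thus not like for like. These matches to letters describe the windows and do not show that a factor was bound.

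At the probe sets used, no member passed the test between PCM and B-cell lines, and the members' differences went in either direction, 9 positive and 18 negative. By limma on 3 PCM against 3 B-cell lines, with the duplicates of a line averaged, 0 of 27 members passed an adjusted p under 0.05, against 2.79% of all 22215 probe sets (1.12% higher and 1.67% lower in PCM lines). At an unadjusted p under 0.05 there were 5 members, or 5 of 27, against 19.7% of all probe sets. In 5 of 27 the PCM lines all lay on 1 side of the B-cell lines, against 28.2% of all probe sets. The median difference was -0.09 over the 27 members and 0.05 over all genes.

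The members with the largest differences between the classes were PMVK, SC5D, ACAT2, EBP and SREBF1. PMVK, which phosphorylates phosphomevalonate, had 10.74, 9.69 and 10.29 in LP1, L363 and U266, against 9.07 and 9.05 on the Namalwa arrays, 9.13 and 8.83 on the SU-DHL6 arrays and 8.55 and 8.79 on the SU-DHL4 arrays. The PCM lines did not overlap with the B-cell arrays. The difference was 1.34 (SE 0.28, adjusted p = 0.0782), 10.24 ± 0.53 in PCM lines and 8.90 ± 0.21 in B-cell lines (SD, n = 3 each, with L363 and U266 counted as separate lines although their arrays were as close as some duplicates).

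SC5D, a sterol desaturase near the end of the route, had 8.45, 7.76 and 7.25 in LP1, L363 and U266, against 8.68 and 8.53 in Namalwa, 9.02 and 9.61 in SU-DHL6 and 9.56 and 9.70 in SU-DHL4. Here the PCM values were all below the B-cell values, although LP1 came close to Namalwa. ACAT2, which joins acetyl-CoA units at the entry to the mevalonate route, had 8.59, 7.87 and 8.03 in LP1, L363 and U266, against 9.53 and 9.17 in Namalwa, 9.91 and 10.10 in SU-DHL6 and 8.93 and 9.09 in SU-DHL4. It too was lower in every PCM line than on any B-cell array. The differences were -1.37 for SC5D (SE 0.39, adjusted p = 0.147) and -1.30 for ACAT2 (SE 0.31, adjusted p = 0.105).

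SREBF1, the gene of SREBP1, had 8.92, 9.39 and 9.17 in LP1, L363 and U266, against 7.72 and 7.76 in Namalwa, 8.37 and 8.80 in SU-DHL6 and 8.48 and 8.36 in SU-DHL4. The PCM lines all lay above the B-cell arrays, and Namalwa was the lowest line. Its difference between classes was 0.91 (SE 0.25, adjusted p = 0.139). ACLY, which makes cytosolic acetyl-CoA from citrate, was the other of the 5 members at an unadjusted p under 0.05, at 11.09 ± 0.14 in PCM lines and 11.36 ± 0.08 in B-cell lines (SD, n = 3 each, difference -0.27, adjusted p = 0.225). The authors' deposited table, which counts every array as a replicate, gives an adjusted p under 0.05 to 3 of the 27 members, PMVK higher and ACAT2 and SC5D lower in PCM, and to 9.85% of all probe sets. Without LP1 1 of 27 members was called, HMGCS1, whose values in L363 and U266 lay below every B-cell array, against 4.04% of all probe sets. With L363 and U266 averaged as 1 line 0 members and 0.828% of all probe sets were called.

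**Figure D1:**
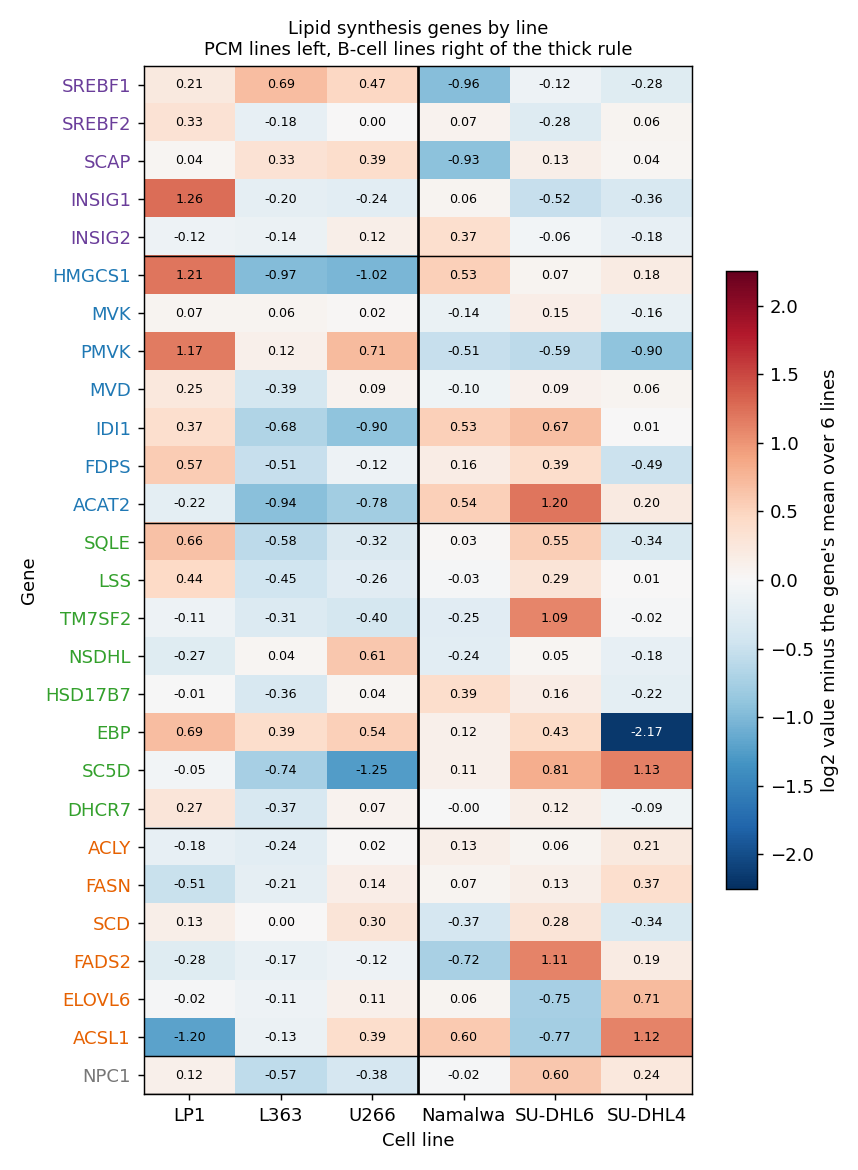
Log2 level of each of the 27 genes in each line minus the gene's mean over the 6 lines, with duplicates averaged. Rows are genes coloured by role (regulators, mevalonate steps, sterol steps, fatty acid steps, transport), columns are lines, with PCM lines left of the thick rule and B-cell lines right of it. HMGCS1 ran from 1.21 in LP1 to -1.02 in U266, and EBP stood at -2.17 in SU-DHL4.

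LP1 stood apart from the other PCM lines by a higher level of sterol genes. Compared with the mean of L363 and U266, with the spread taken from the duplicates of the B-cell lines, 5 of 27 members were higher and 0 lower in LP1 (18.5%, against 8.2% of all probe sets, 4.96% higher and 3.25% lower). The 5 were HMGCS1, INSIG1, SQLE, FDPS and LSS. Members were taken at the brightest set of each gene, whereas the 8.2% covers all sets. At 1 probe set per gene 9.28% of all genes were called. Among probe sets above the median level 5 of 25 members and 12% of all such sets were called. In the sterol arm 4 of 15 members were called and 14 of 15 had a positive difference, with a median of 0.64. In the fatty acid arm 0 of 6 were called and 0 of 6 were positive, with a median of -0.10, and the median over all genes was -0.06.

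HMGCS1, the synthase that makes HMG-CoA, had 9.86 in LP1, against 7.69 in L363 and 7.64 in U266. The B-cell arrays lay between, at 9.24 and 9.13 in Namalwa, 8.76 and 8.69 in SU-DHL6 and 8.93 and 8.75 in SU-DHL4. At this probe set LP1 was the highest and the other PCM lines the lowest of all arrays. HMGCS1 was 4.60-fold higher in LP1 than in L363 and U266 (difference 2.20, SE 0.13, adjusted p = 0.000867). Its other probe set, 221750_at, gave 7.86 in LP1, against 5.84 and 6.01 in L363 and U266, a difference of 1.93 (SE 0.19, adjusted p = 0.00462). There L363 and U266 were again lowest, but the SU-DHL6 arrays, at 8.06 and 7.92, exceeded LP1.

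INSIG1, the sterol-responsive protein that retains SCAP, had 11.28 in LP1, against 9.82 in L363 and 9.78 in U266. It had 10.21 and 9.94 in Namalwa, 9.42 and 9.59 in SU-DHL6 and 9.71 and 9.61 in SU-DHL4, so that LP1 lay above all the other arrays. The gene was 2.80-fold higher in LP1 than in L363 and U266 (difference 1.48, SE 0.15, adjusted p = 0.00575). Its further probe sets gave differences of 1.42 and 1.55, and each was called (adjusted p = 0.0177 and 0.0125).

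SQLE, the squalene epoxidase, had 11.08 in LP1, against 9.84 in L363 and 10.11 in U266. Its difference was 1.11 (SE 0.15, adjusted p = 0.0134), with further probe sets at 0.96 and 1.78, both called. FDPS, which makes farnesyl diphosphate, had 11.21 in LP1, against 10.13 in L363 and 10.53 in U266, a difference of 0.88 (SE 0.13, adjusted p = 0.0161). LSS, which closes the sterol ring to lanosterol, had 9.69 in LP1, against 8.79 in L363 and 8.99 in U266, a difference of 0.80 (SE 0.12, adjusted p = 0.0191). For all of these LP1 exceeded the other PCM lines by more than those lines differed from each other. Further probe sets of LSS gave no call.

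IDI1, the isomerase of isopentenyl diphosphate, had 10.30 in LP1, against 9.24 in L363 and 9.02 in U266. Its difference of 1.17 was slightly larger than that of SQLE, but its SE was 0.39, and it was not called (adjusted p = 0.159). The SU-DHL6 duplicates enter that SE, and they read 10.08 and 11.10. PMVK (0.76, adjusted p = 0.0609), SC5D (0.94, adjusted p = 0.0849) and ACAT2 (0.64, adjusted p = 0.118) were not called either. NSDHL, which takes part in removing methyl groups from sterols, was the member of the sterol arm with a negative difference, -0.59 (adjusted p = 0.110).

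Among the fatty acid enzymes ACSL1, which activates long-chain fatty acids, differed most. It had 6.46 in LP1, against 7.52 in L363 and 8.04 in U266, a difference of -1.33 (SE 0.36, adjusted p = 0.0925). At the probe set 201963_at the values were 5.17 in LP1, against 6.46 and 7.38 in L363 and U266, and there ACSL1 was called lower in LP1 (-1.75, SE 0.20, adjusted p = 0.00724). FASN, the fatty acid synthase, had 9.41 in LP1, against 9.71 in L363 and 10.06 in U266, and was not called (-0.47, SE 0.28, adjusted p = 0.417). SCD, the stearoyl-CoA desaturase, had 10.29 in LP1, against 10.16 in L363 and 10.46 in U266, and LP1 lay between the other lines.

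The regulators other than INSIG1 were not called at the probe set used. SREBF2 had 9.22 in LP1, against 8.71 in L363 and 8.90 in U266 (difference 0.42, adjusted p = 0.376). At its other probe set, 201247_at, the values were 9.40 in LP1, against 8.60 and 8.78, and this set was called (0.71, SE 0.14, adjusted p = 0.0375). SCAP had 9.14 in LP1, against 9.43 in L363 and 9.49 in U266. INSIG2, which shares the role of INSIG1, had 6.31 in LP1, against 6.30 in L363 and 6.56 in U266, and SREBF1 differed by -0.36 (adjusted p = 0.356).

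The LP1 calls rested on 1 array a line and on the assumption that a PCM line would vary like the duplicates of a B-cell line. The count was 2 (HMGCS1 and INSIG1) when either Namalwa array was left out, 4 when either SU-DHL4 array was, and 10 when either SU-DHL6 array was, against 3.89%, 4.33% and 10.9% of all probe sets. Against U266 alone 3 members were called, HMGCS1, INSIG1 and SQLE, and 6.15% of all probe sets.

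**Figure D2:**
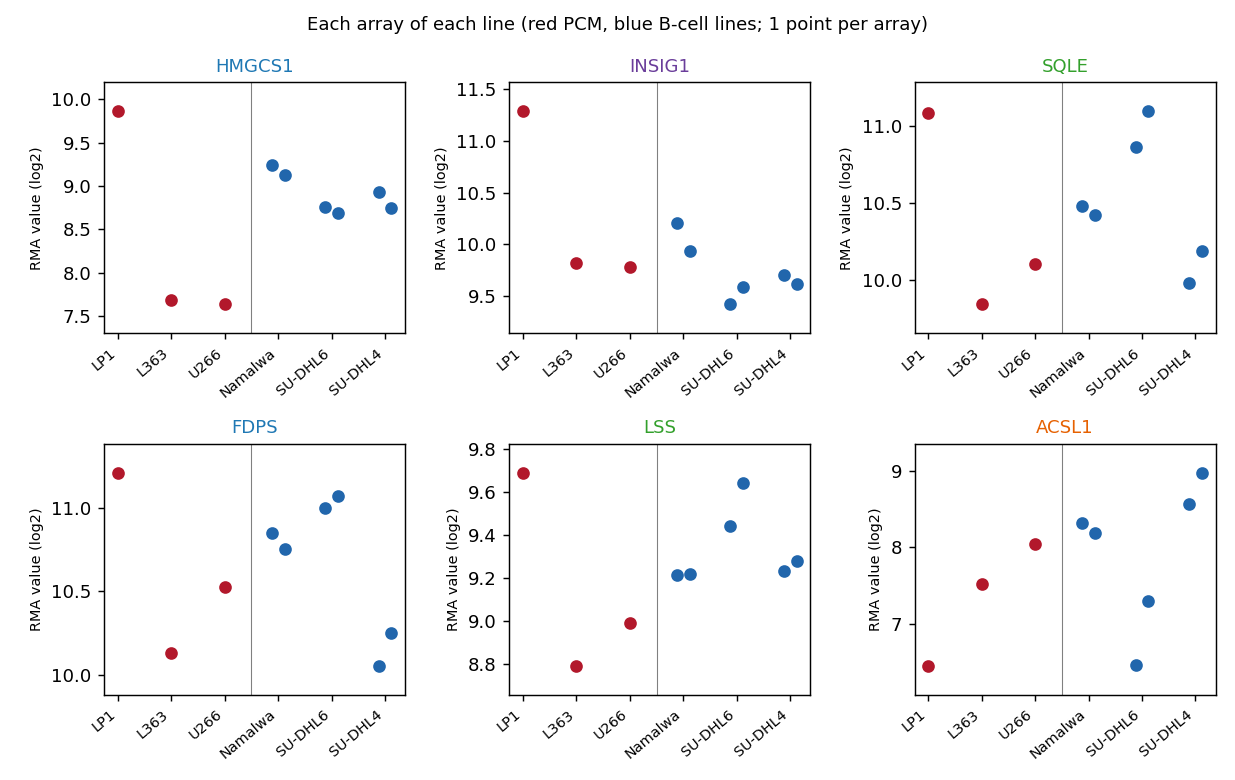
RMA log2 level of HMGCS1, INSIG1, SQLE, FDPS, LSS and ACSL1 on each of the 9 arrays, 1 point per array, with PCM lines in red at the left and B-cell lines in blue at the right of each panel. Vertical axes differ between panels and do not start at 0. LP1 has the highest point for HMGCS1 (9.86) and INSIG1 (11.28), and ACSL1 is lowest in LP1 and on an SU-DHL6 array (6.46 and 6.47).

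Among the B-cell lines, SU-DHL6 had higher sterol genes than SU-DHL4 and a mixed fatty acid arm. By limma on the 6 B-cell arrays, 7 of 27 members were higher and 2 lower in SU-DHL6 (33.3%, against 8.52% of all probe sets, 3.75% higher and 4.77% lower). In the sterol arm 5 of 15 were called, all higher, and 13 of 15 had a positive difference, with a median of 0.31. In the fatty acid arm 2 of 6 rose and 2 fell, with a median of -0.20. The median over all genes was 0.07, and 0 of 5 regulators were called. At 1 probe set per gene, as for the members, 9.61% of all genes were called. Among probe sets above the median level 8 of 25 members and 15.8% of all such sets were called.

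Of the sterol arm, EBP, TM7SF2, ACAT2, SQLE and FDPS were higher at the probe sets used. EBP was called lower at its probe set 213789_at (-1.37, SE 0.22, adjusted p = 0.0205). TM7SF2, a sterol reductase acting after lanosterol, had 9.15 and 9.42 on the SU-DHL6 arrays, against 8.25 and 8.08 on those of SU-DHL4. The SU-DHL6 arrays were the highest of all 9, and the difference was 1.12 (SE 0.13, adjusted p = 0.00765). ACAT2 had 9.91 and 10.10 in SU-DHL6, against 8.93 and 9.09 in SU-DHL4 (0.99, SE 0.15, adjusted p = 0.0194). SQLE had 10.86 and 11.09 in SU-DHL6, against 9.98 and 10.19 in SU-DHL4 (0.89, SE 0.12, adjusted p = 0.0142). For each of these genes the arrays of the lines did not overlap, which adds little to a call that rests on the same duplicates. The share of all probe sets without such overlap was not counted. FDPS had 11.00 and 11.07 in SU-DHL6, against 10.05 and 10.25 in SU-DHL4 (0.88, SE 0.10, adjusted p = 0.00900), again with no overlap.

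HMGCS1 and INSIG1, the genes that most set LP1 apart, were not called between the SU-DHL lines. HMGCS1 differed by -0.11 (SE 0.10, adjusted p = 0.582) at the probe set used, but its probe set 221750_at read 8.06 and 7.92 in SU-DHL6, against 7.38 and 6.96 in SU-DHL4, and was called (0.82, SE 0.15, adjusted p = 0.0336). INSIG1 differed by -0.16 (SE 0.13, adjusted p = 0.540). DHCR7, a reductase of the last step to cholesterol, was called at its probe set 201791_s_at (0.68, adjusted p = 0.0162) but not at the set used (0.21, adjusted p = 0.445).

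In the fatty acid arm, at the probe sets used, FADS2 and SCD were higher and 2 other enzymes lower in SU-DHL6. FADS2, which desaturates polyunsaturated fatty acids, had 8.30 and 8.37 in SU-DHL6, against 7.35 and 7.47 in SU-DHL4 (0.93, SE 0.15, adjusted p = 0.0231). SCD had 10.28 and 10.61 in SU-DHL6, against 9.80 and 9.83 in SU-DHL4 (0.63, SE 0.13, adjusted p = 0.0427). SCD probe sets disagreed, however. The sets 211708_s_at and 211162_x_at gave -1.11 (SE 0.45) and -1.14 (SE 0.46), and 200831_s_at gave -0.05 (SE 0.10), with no call.

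At 211708_s_at the SU-DHL6 arrays read 9.02 and 7.60, against 9.42 on each SU-DHL4 array. ELOVL6, an elongase of saturated fatty acids, fell to 5.34 and 5.80 in SU-DHL6, against 6.84 and 7.23 in SU-DHL4 (-1.47, SE 0.20, adjusted p = 0.0131). Its mean level was at percentile 33.9 of all probe sets. The myeloid marker CD14 read 5.89 in SU-DHL6, so ELOVL6 may lie near background there. ACSL1 fell to 6.47 and 7.30 in SU-DHL6, against 8.57 and 8.97 in SU-DHL4 (-1.89, SE 0.29, adjusted p = 0.0190). For ELOVL6 and ACSL1 the arrays did not overlap, which again adds little to a call. The ACSL1 probe set 201963_at gave 5.32 and 5.39 in SU-DHL6, against 7.96 and 8.42 in SU-DHL4, a larger fall (-2.84, SE 0.16, adjusted p = 0.00131). These SU-DHL6 values, like that of LP1 at this set, may also lie near background.

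FASN had 10.27 and 9.83 in SU-DHL6, against 10.27 and 10.30 in SU-DHL4, and was not called (-0.24, SE 0.23, adjusted p = 0.609). Calls in this comparison rested on the duplicates. EBP was the 1 member called when either SU-DHL4 array was left out, and FDPS, TM7SF2, EBP, ACAT2 and FADS2 were the 5 called when either Namalwa array was. The share of all probe sets called was then lower than 8.52% too, at 2.43% and 1.44% without array 1 and array 2 of SU-DHL4 and 3.84% without a Namalwa array. With array 1 of SU-DHL6 left out 10 members were called (11.5% of all probe sets), and with array 2 left out 6 were (7.94%).

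**Figure D3:**
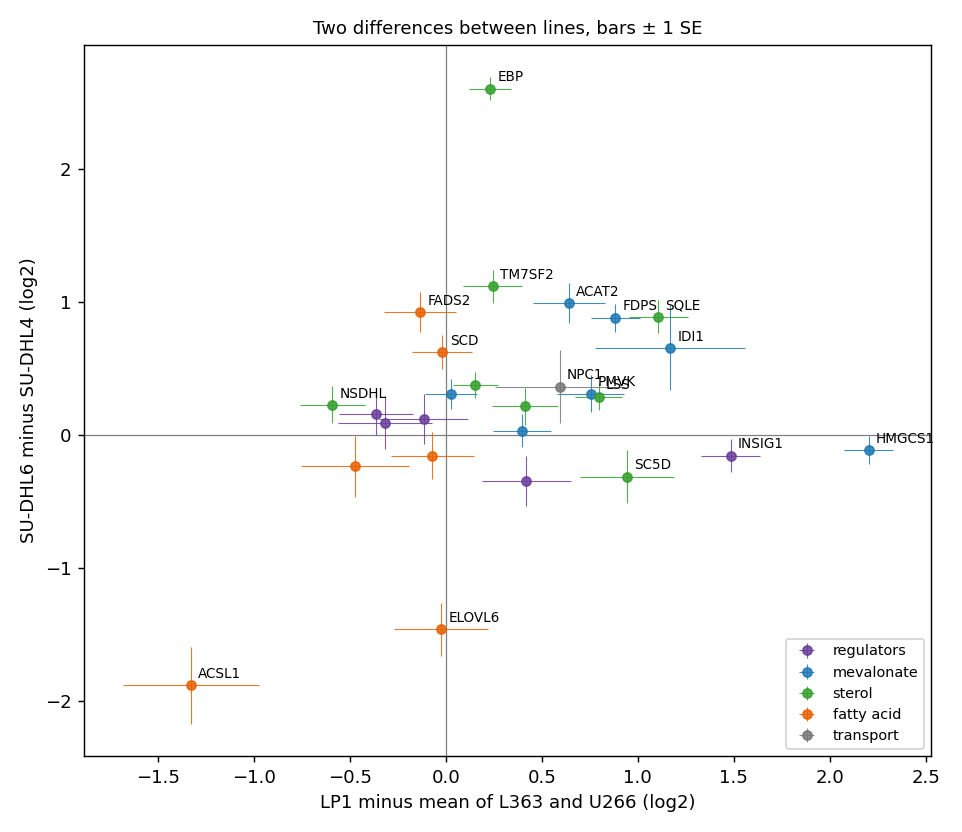
Log2 difference of each of the 27 genes between LP1 and the mean of L363 and U266 (horizontal) and between SU-DHL6 and SU-DHL4 (vertical), with bars of 1 SE and colours by role. HMGCS1 lies at 2.20 and -0.11, EBP at 0.23 and 2.61, and ACSL1 at -1.33 and -1.89.

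The differences of LP1 from L363 and U266 and of SU-DHL6 from SU-DHL4 share no arrays of the lines compared, but the duplicates of all 3 B-cell lines give both their error. FDPS and SQLE were called higher in both. The share of all probe sets called in both was not counted, so no conclusion is drawn from this overlap. The plot of these differences shows HMGCS1 and INSIG1 far out along the LP1 axis, and EBP, TM7SF2 and ELOVL6 along the axis of the SU-DHL lines.

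Namalwa differed from the SU-DHL lines in members of several roles, in either direction. Against the mean of SU-DHL6 and SU-DHL4, 2 of 27 members were higher and 5 lower in Namalwa (25.9%, against 9.01% of all probe sets, 4.7% higher and 4.31% lower). At 1 probe set per gene 10.2% of all genes were called. The 2 higher members were HSD17B7 and EBP, and for EBP at the set used Namalwa lay between SU-DHL6 and SU-DHL4. Of the 5 regulators SREBF1 and SCAP were lower and the other 3 were not called, with positive differences. SREBF1 fell to 7.72 and 7.76 in Namalwa, against 8.37 and 8.80 in SU-DHL6 and 8.48 and 8.36 in SU-DHL4 (-0.76, SE 0.14, adjusted p = 0.0275). SCAP fell to 8.45 and 7.90 in Namalwa, against 9.10 and 9.37 in SU-DHL6 and 9.14 and 9.14 in SU-DHL4 (-1.02, SE 0.17, adjusted p = 0.0235). For these genes Namalwa lay below every other array, those of PCM lines included.

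FADS2 fell to 6.29 and 6.71 in Namalwa, against 8.30 and 8.37 in SU-DHL6 and 7.35 and 7.47 in SU-DHL4 (-1.37, SE 0.13, adjusted p = 0.00488). The T cell marker CD3D read 6.73 in Namalwa, so FADS2 may lie near background there. TM7SF2 had 7.95 and 7.94 in Namalwa and fell by 0.78 (SE 0.11, adjusted p = 0.0138), and SC5D fell by 0.86 (SE 0.17, adjusted p = 0.0386). HSD17B7, a keto-reductase of sterol synthesis, had 9.44 and 9.27 in Namalwa, against 9.15 and 9.10 in SU-DHL6 and 8.73 and 8.77 in SU-DHL4 (0.42, SE 0.08, adjusted p = 0.0369). Namalwa lay above the SU-DHL arrays for HSD17B7 and below them for FADS2, TM7SF2 and SC5D, which adds little to calls on the same arrays. INSIG1 (0.49, adjusted p = 0.0525) and HMGCS1 (0.40, adjusted p = 0.0515) missed the threshold.

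SREBF2 had 9.25 and 8.68 in Namalwa, against 8.64 and 8.58 in SU-DHL6 and 8.94 and 8.97 in SU-DHL4, and the duplicates of Namalwa spanned most of the range of the B-cell lines. INSIG2 had 6.80 and 6.81 in Namalwa, against 6.16 and 6.59 in SU-DHL6 and 6.06 and 6.45 in SU-DHL4, and was not called (0.49, adjusted p = 0.159). FADS2 was the 1 member called when either Namalwa array was left out (0.842% and 1.03% of all probe sets), and EBP and FADS2 were the 2 called when either SU-DHL4 array was (3.45% and 3.42%). With the _x_at and _s_at probe sets left out, which may bind several transcripts, 16 members had a set left, and 3 were called: SREBF1, SCAP and, at its other probe set, ACSL1 (8% of all probe sets). TM7SF2, HSD17B7 and FADS2 had no set left.

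The arms were then set side by side in each line, as the median over an arm of each gene's level minus its mean over the 6 lines. LP1 had the sterol arm at 0.27 and the fatty acid arm at -0.23. L363 had -0.39 and -0.15, and U266 had -0.12 and 0.13. The sterol arm was thus the higher arm in LP1 and the lower in L363 and U266. Among B-cell lines the sterol and fatty acid arms stood at 0.03 and 0.07 in Namalwa, at 0.29 and 0.10 in SU-DHL6, and at -0.09 and 0.29 in SU-DHL4.

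The fatty acid arm minus the sterol arm was -0.50 in LP1, 0.24 in L363, 0.24 in U266, 0.04 in Namalwa, -0.20 in SU-DHL6 and 0.38 in SU-DHL4. The SD of this value between duplicate arrays was 0.22. PCM values come from 1 array each and B-cell values from 2. The duplicates of SU-DHL6 gave -0.03 and -0.53, those of SU-DHL4 gave 0.34 and 0.43, and those of Namalwa gave 0.10 and -0.09. With the mean of each gene's probe sets the value in SU-DHL6 was -0.57. With means in place of medians the value in Namalwa turned to -0.12, and those of the other lines kept their sign. No test was made of these summaries over chosen genes.

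Gene by gene, LP1 was the highest of the 6 lines in 8 of 15 members of the sterol arm and in 0 of 6 of the fatty acid arm. SU-DHL6 was highest in 4 of the 15, and it lay above the gene's mean in 14 of them. L363 was the lowest line in 7 and U266 in 4 of the 15. SU-DHL4 was highest in 4 of the 6 fatty acid enzymes: ACLY, FASN, ELOVL6 and ACSL1. The share of all genes with each line highest or lowest was not counted, and PCM lines are single arrays. No conclusion is drawn from these counts.

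**Figure D4:**
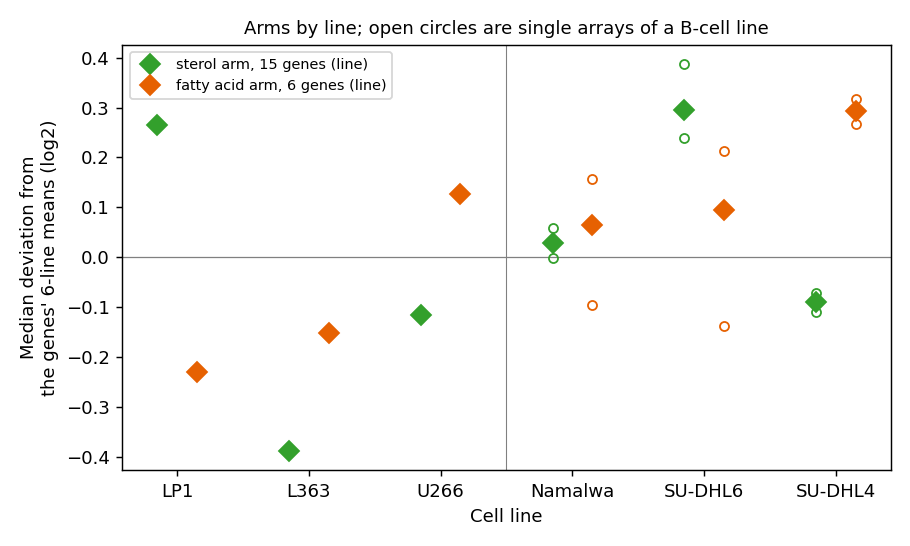
Median log2 deviation from the genes' 6-line means in each line, for the 15 measured genes of the sterol arm (green) and the 6 of the fatty acid arm (orange); diamonds are lines and open circles single arrays of a B-cell line, with PCM lines left of the grey rule. The sterol diamond is above the fatty acid diamond in LP1 (0.27 and -0.23) and SU-DHL6 (0.29 and 0.10), and below it in SU-DHL4 (-0.09 and 0.29).

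EBP, the isomerase that shifts a bond in the sterol ring, had 3 probe sets, and they disagreed on SU-DHL4. At 213787_s_at, the brightest, EBP had 11.05, 10.74 and 10.89 in LP1, L363 and U266, 10.44 and 10.51 in Namalwa, 10.83 and 10.74 in SU-DHL6 and 8.20 and 8.16 in SU-DHL4. SU-DHL4 was far below all the other lines, which spanned less than a log2 unit. SU-DHL6 exceeded SU-DHL4 by 6.09-fold (2.61, SE 0.09, adjusted p = 0.000475).

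The probe set 202735_at had 9.45, 9.09 and 9.25 in LP1, L363 and U266, 8.54 and 8.91 in Namalwa, 9.35 and 9.40 in SU-DHL6 and 7.89 and 7.61 in SU-DHL4. It likewise placed SU-DHL4 lowest, with a smaller difference between SU-DHL6 and SU-DHL4 (1.62, SE 0.16, adjusted p = 0.00529). The probe set 213789_at had 7.70, 7.36 and 7.52 in LP1, L363 and U266, 7.59 and 7.08 in Namalwa, 7.82 and 7.70 in SU-DHL6 and 8.92 and 9.35 in SU-DHL4. Here SU-DHL4 was the highest line, and SU-DHL6 lay below it (-1.37, SE 0.22, adjusted p = 0.0205). This call was lost when array 1 (-1.58, adjusted p = 0.0706) or array 2 of SU-DHL4 (-1.16, adjusted p = 0.143) or array 2 of SU-DHL6 (-1.31, adjusted p = 0.0686) was left out. That of 202735_at was lost without array 2 of SU-DHL4 (1.48), and that of 213787_s_at in none of the 12 refits that held this set.

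In Namalwa against the SU-DHL lines the sets gave 0.99 (adjusted p = 0.00275), 0.16 (adjusted p = 0.681) and -1.12 (adjusted p = 0.0231) in the same order. At the brightest set Namalwa lay between SU-DHL6 and SU-DHL4, and the mean of the SU-DHL lines, 9.48, lay below it. These Namalwa calls were lost when either Namalwa array was left out (adjusted p = 0.0502 and 0.0507 at the brightest set, 0.0756 and 0.152 at 213789_at), and that of 213789_at also without either SU-DHL4 array. Between PCM and B-cell lines the sets gave 1.08, 0.65 and -0.55, none called (adjusted p = 0.427, 0.418 and 0.539). In LP1 against L363 and U266 they gave 0.23, 0.28 and 0.26, none called. The sets agreed in direction among the PCM lines and disagreed wherever SU-DHL4 entered a comparison.

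**Figure D5:**
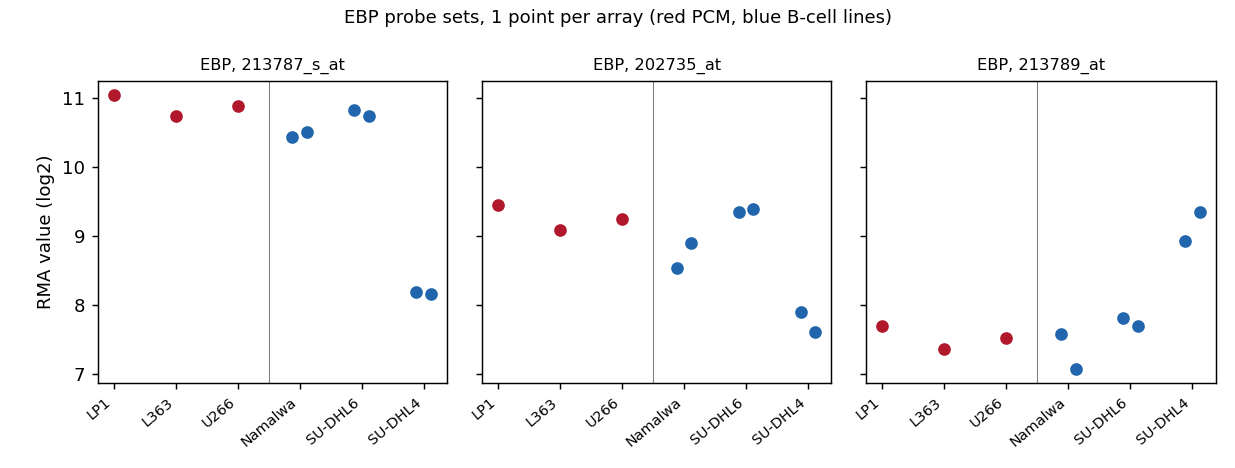
RMA log2 level of the 3 EBP probe sets on each of the 9 arrays, 1 point per array, PCM lines in red at the left and B-cell lines in blue at the right, on a shared axis that does not start at 0. SU-DHL4 is lowest at 213787_s_at (8.20 and 8.16) and 202735_at (7.89 and 7.61), and highest at 213789_at (8.92 and 9.35).

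SCD also had probe sets that differed in the PCM comparison. At 200831_s_at SCD had 10.14, 10.16 and 10.16 in LP1, L363 and U266, against 9.78 and 9.71 in Namalwa, 9.66 and 9.65 in SU-DHL6 and 9.80 and 9.60 in SU-DHL4. The PCM lines did not overlap with the B-cell arrays, and this set was called (0.46, SE 0.07, adjusted p = 0.0335). At 200832_s_at, the set used, SCD had 9.77 and 9.81 in Namalwa, and SU-DHL6 overlapped with the PCM lines (0.29, SE 0.20, adjusted p = 0.463). At 211708_s_at each PCM line lay above every B-cell array, with a difference of 1.18 between the classes (SE 0.33, adjusted p = 0.138). The same held at 211162_x_at, where the difference was 1.03 (adjusted p = 0.179), and neither set was called.

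FASN had probe sets of opposite sign. At the set used it had 10.27 and 9.70 in Namalwa, and its difference between PCM and B-cell lines was -0.38 (SE 0.19, adjusted p = 0.320). At 217006_x_at the PCM lines lay above the mean of each B-cell line but not above every B-cell array, at 6.77 ± 0.15 in PCM lines and 6.42 ± 0.13 in B-cell lines (SD, n = 3 each, difference 0.35, SE 0.11, adjusted p = 0.182). FASN was called at neither set.

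The remaining members were called in 0 of the 4 comparisons at the sets used. MVK and MVD, a kinase and a decarboxylase of the mevalonate route, spanned 0.31 and 0.63 over the 6 lines, DHCR7 spanned 0.63 and ACLY 0.46. NSDHL spanned 0.88 and NPC1, which exports cholesterol from lysosomes, 1.17.

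Of 33 further genes of sterol and fatty acid metabolism, 27 were measured. Between PCM and B-cell lines 0 of the 27 were called (2.79% of all probe sets). In LP1 against L363 and U266 2 of 27 were higher, MSMO1 and ACSL5, and 2 lower, GGPS1 and NPC2 (8.2% of all probe sets). MSMO1, a sterol oxidase that acts after lanosterol, had 9.20 in LP1, against 6.97 in L363 and 7.94 in U266 (1.74, SE 0.18, adjusted p = 0.00600). It was also higher in SU-DHL6, with 9.13 and 9.55, than in SU-DHL4, with 8.26 and 8.19 (1.11, SE 0.15, adjusted p = 0.0130).

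GGPS1, which makes geranylgeranyl diphosphate from the farnesyl precursor, fell to 7.73 in LP1, against 8.55 in L363 and 8.69 in U266 (-0.88, SE 0.15, adjusted p = 0.0224). Between SU-DHL6 and SU-DHL4 3 of 27, GGPS1, MSMO1 and NPC2, were higher and 1 lower (8.52% of all probe sets). The lower gene was ABCA1, a cholesterol exporter, at 6.14 and 6.10 in SU-DHL6, against 7.59 and 8.04 in SU-DHL4 (-1.69, SE 0.20, adjusted p = 0.00885). GGPS1 was thus lower in LP1 but higher in SU-DHL6, whereas MSMO1 was higher in each. In Namalwa against the SU-DHL lines 1 of 27, SOAT1, was higher and 5, LPIN1, NPC2, UBE2G2, CPT1A and ACSL5, were lower (9.01% of all probe sets), with the largest difference in LPIN1 (-1.77, SE 0.23, adjusted p = 0.0115).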

How the data were processed

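The 9 arrays of 6 cell lines carry values in log2 units, deposited by the authors after RMA, per the labels and the submitters' processing notes; neither its version nor a joint normalization of the arrays is recorded there. Array medians lay between 6.95 and 7.04, detection calls are absent, and the number of arrays limits precision. The authors also deposited p-values of a moderated test, per the file headers, unadjusted and after Benjamini-Hochberg adjustment, with log2 differences that run B-cell minus PCM.

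Tests were two-sided and used lmFit and eBayes of limma 3.58.1 in R 4.3.3 on the deposited values, with 68 control probe sets left out and Benjamini-Hochberg adjustment over all 22215 others. A call is an adjusted p under 0.05. PCM lines were set against B-cell lines over 6 lines, duplicates averaged (4 residual degrees of freedom). The contrasts among B-cell lines used their 6 arrays, and LP1 against L363 and U266 used 9 arrays, each with line as a factor (3 residual degrees of freedom, all from the B-cell duplicates). With 3 lines a side an exact permutation test has 0.1 as its smallest p, so none was run. The scripts were tested on simulated data.

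Genes were named by the platform annotation. Array values are given for members called in any comparison, the regulators, FASN, SCD, EBP and the 5 members with the largest difference in each comparison. The members and lists were chosen with earlier results of these data known. Alternatives covered how duplicates were treated (all arrays, or a random block per line), scaling (quantile again, or the 75th percentile), probe set filters, eBayes with trend, L363 and U266 averaged or taken singly, a replicate block, a threshold of 0.01, and lines or arrays left out.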

Additional observations from a re-analysis of the deposited data

How the results depend on the processing

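Between PCM and B-cell lines the count of 0 members became 3 with each array as a replicate, PMVK, SC5D and ACAT2. The share of all probe sets called was then 9.85%. With line as a random block 2 were called, PMVK and ACAT2 (7.05% of all probe sets). PMVK was the 1 member called after a second quantile normalization (2.42%) and with centring on the 75th percentile (3.17%). With probe sets above the median alone it was 1 of 25 (6.05%). Leaving out a line or array gave 0 to 1, with 0.59% to 4.04% of all probe sets. Averaging L363 and U266 left 0 of 27 and 0.828% of all probe sets. For LP1 the 5 members became 3 against U266 alone and 2 at an adjusted p under 0.01, and 2 to 10 with an array left out. For SU-DHL6 against SU-DHL4 the 9 became 3 at 0.01 and 1 to 10 with an array left out. For Namalwa the 7 became 3 without _x_at and _s_at sets, a filter that left 16 members a probe set and gave 7 for LP1 and 6 for SU-DHL6, 2 at 0.01 and 1 to 9 with an array left out. At 0.01 the share of all probe sets was 2.82% for LP1 and 2.71% for SU-DHL6. Without _x_at and _s_at sets it was 7.85% for LP1 and 7.96% for SU-DHL6. With the replicate block 8 members were called in SU-DHL6 against SU-DHL4 (6.12% of all probe sets), where SCD lost its call. In Namalwa against the SU-DHL lines HSD17B7 and SC5D lost their calls with that block. Shares of all probe sets for Namalwa at 0.01 and without an SU-DHL6 array are not given here, so nothing is read from those counts. Differences between duplicates correlated at -0.15 for Namalwa and SU-DHL6, -0.44 for Namalwa and SU-DHL4 and 0.20 for SU-DHL6 and SU-DHL4. These values, of either sign, do not decide whether the replicate numbers pair the samples. The fatty acid arm minus the sterol arm in SU-DHL6 moved to -0.57 with the mean of each gene's probe sets, and to -0.478 to -0.0367 with an array left out. Averaging L363 and U266 in the centre, or leaving out EBP, 2 alternatives chosen after seeing the data, moved no line by more than the spread between duplicates. Over single named members, 225 of 298 refits kept the call, 73 lost it and 0 turned direction. These refits were not independent. Leaving out a B-cell array cannot change an LP1 difference, so its direction was fixed there. Leaving out either array of a B-cell line gave the same LP1 fit. The SU-DHL6 fit over all 9 arrays repeated the main fit. INSIG1 and HMGCS1 in LP1, EBP in SU-DHL6 against SU-DHL4 and FADS2 in Namalwa kept their calls in each of 12 refits at 0.05. Their sets are _s_at sets, so the refit without _x_at and _s_at sets did not include them. The causes of these changes were not tested. With 1 array a PCM line, the LP1 comparison has no spread of its own.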
